A study of Mus musculus with 16 samples.

Results

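This comparison set the cerebellum of Atm-/- mice that drank plain water (Atm-/- veh, 4 arrays) against that of wild-type mice on the same water (WT veh, 4 arrays), 8 of the 16 arrays of the study. The arrays were chosen by their titles, and no measured value was used. All mice came from 1 line carrying the Atm tm1Bal allele on a mixed background of B6 and 129S4, with wild-type littermates as controls, and according to the labels they were male and 3.5 months old, with the water regime begun at 6 weeks of age and kept for 2 months. The other 8 arrays, from mice of both genotypes given nicotinamide riboside (NR), entered the same model and were used as a second set in which each genotype difference could be looked up. The 8 arrays of each genotype filled a slide of their own, and an effect of genotype cannot be told apart from one of the slide. The targeted allele brings its own neighbouring stretch of chromosome 9 with it, so the loss of *Atm* and the strain of that stretch cannot be told apart either.

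ATM is a protein kinase that responds to DNA double-strand breaks and to oxidative stress, and phosphorylates p53, CHK2, H2AX and many other proteins of the checkpoint and repair machinery. People without it develop ataxia telangiectasia, in which Purkinje and granule cells of the cerebellum are lost, with immune deficiency and raised interferon signalling, while mice without it show much milder changes of the cerebellum. *Atm* shares its start region with *Npat*, a coactivator of histone gene transcription that is read in the opposite direction.

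The start region of *Atm* is shown because the gene was targeted here and its neighbour across that region was not. In RefSeq's table for GRCm38.p6, the outermost ends of the *Atm* and *Npat* gene bodies are 60 bases apart, while the start that the table of promoters uses for *Atm* lies inside its gene body. The 300 bases from 250 before to 50 after that start lie at chr9:53536622-53536921 on the minus strand, and are written 5′ to 3′ with the GC box GGGCGG in capitals.
Atm: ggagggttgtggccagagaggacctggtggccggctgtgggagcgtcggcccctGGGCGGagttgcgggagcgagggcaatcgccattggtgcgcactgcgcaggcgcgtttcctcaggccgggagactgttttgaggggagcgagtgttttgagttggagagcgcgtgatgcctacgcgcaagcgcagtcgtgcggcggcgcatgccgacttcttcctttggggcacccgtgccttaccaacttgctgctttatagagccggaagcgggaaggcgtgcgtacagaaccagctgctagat
The letters GGGCGG, searched on both strands, occurred 1 time in this window and in 35.7% of the 32851 start windows of the table.

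Each array held 56605 probes, of which 32994 were named, and 37253 probes for 16737 named genes passed the filter on dim probes. Values are normalized log2 signals of a probe, and changes are Atm-/- veh minus WT veh on the log2 scale. Between 39134 and 41905 probes were well above background on the Atm-/- veh arrays and between 37843 and 42559 on the WT veh arrays, a difference within the spread between arrays (p = 0.343, two-sided exact permutation test, n = 4 per group). On 1 of the 8 arrays, Atm-/- veh 3, no Y-linked gene (*Uty*, *Kdm5d*, *Eif2s3y*) was detected while *Xist* was, against the male label. The same array carried more RNA of red cells, with *Alas2*, a heme synthesis enzyme of red cell precursors, at 13.13 against 9.31 to 10.26 on the other 7. WT veh 4 also stood apart. *Ttr*, the main secreted protein of the choroid plexus, was at 18.05 on it and between 8.31 and 12.33 on the other 7 arrays, and *Tbr1*, a transcription factor of cortical neurons, was at 12.24 against 6.79 to 8.67. The calls, and the gene lists that moved most, are therefore also given without these arrays. The median of 17 of the 26 gene lists turned its sign without WT veh 4, without Atm-/- veh 3 or without both. The defining markers of the cerebellar cortex were bright on all 8 arrays, with *Pcp2* of Purkinje cells between 17.84 and 18.44.

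Of the 37253 probes, 20 (0.0537%) were called by limma at an adjusted p under 0.05, 18 of them lower and 2 higher in Atm-/- veh. Of the 13 called probes with a gene name, 12 belonged to *Atm* and to genes within 8.64 Mb of it on chromosome 9, and 1 to a gene elsewhere, *Mia2*. In terms of genes, 12 of the 369 named genes within 20 Mb of *Atm* had a called probe, and 1 of the 16368 genes elsewhere had one. The called changes ran from 0.48 to 5.43 in size, with a median of 1.44, while the median size over all 37253 probes was 0.16. At an unadjusted p under 0.05, 2785 probes were higher and 2657 lower. The methods' t-test, run on the deposited z-scores, placed 4290 probes at an unadjusted p of 0.05 or less, and 2 after Benjamini-Hochberg adjustment. Fitted to the 8 veh arrays alone, limma called 7 probes, all of them lower, of which 5 were among the 20.

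*Atm* itself was read first, as a check of the labels. Its called probe was at 8.63, 8.85, 9.03 and 8.86 on the WT veh arrays and at 7.91, 8.08, 7.97 and 7.92 on the Atm-/- veh arrays, with no overlap. The change was -0.87 (SE 0.083, limma adjusted p = 0.000317), or 1.83-fold lower. A second, brighter *Atm* probe was at 9.05, 9.19, 9.27 and 8.97 in WT veh and at 8.72, 8.78, 8.82 and 8.79 in Atm-/- veh, again without overlap, and its change of -0.35 was not called (limma adjusted p = 0.221). Transcript signal was thus lower but still well above background on all 4 Atm-/- veh arrays for both probes. Where the probes lie relative to the targeted exon was not known here. *Npat* was at 9.96, 10.12, 10.21 and 9.90 in WT veh and at 9.80, 9.96, 9.81 and 9.90 in Atm-/- veh, and these ranges overlapped (change -0.18, limma adjusted p = 0.383).

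**Figure D1:**
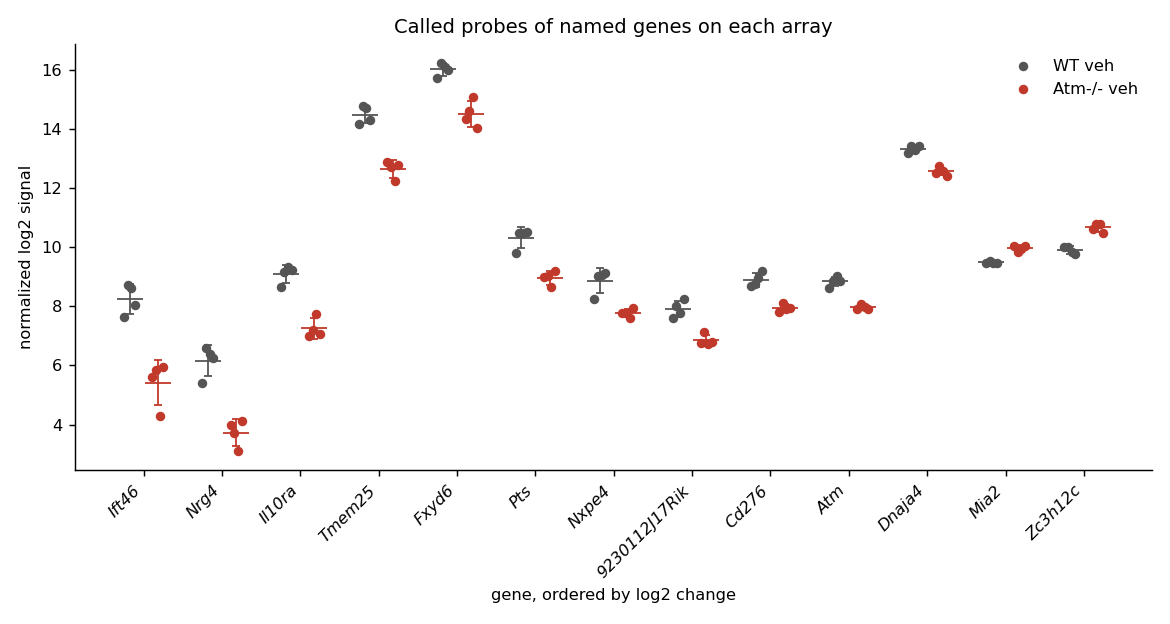
Normalized log2 signal (vertical axis) of the called probe of each of 13 named genes (horizontal axis, ordered by log2 change) on the 4 WT veh arrays (grey) and the 4 Atm-/- veh arrays (red), with the mean and SD of each group. In every gene shown the groups do not overlap, and only *Mia2* and *Zc3h12c* are higher in Atm-/- veh.

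On the centromere side of *Atm*, 7 genes had a called probe, between 1.27 and 8.64 Mb away. *Tmem25*, which encodes a membrane protein of the immunoglobulin superfamily, was the firmest of them. It was at 14.17, 14.75, 14.69 and 14.30 in WT veh and at 12.88, 12.69, 12.22 and 12.77 in Atm-/- veh, without overlap. The fall of 3.57-fold (log2 change -1.84, SE 0.17, limma adjusted p = 0.000272) stayed called under all 17 alternatives tried, while the call of *Atm*, *Ift46*, *Il10ra* and *Fxyd6* was lost in 1 of 17 each, the fit of only the veh arrays. *Ift46*, a subunit of the intraflagellar transport complex of cilia, lies next to it. Its called probe was at 7.64, 8.71, 8.63 and 8.03 in WT veh and at 5.61, 5.85, 4.29 and 5.95 in Atm-/- veh, which is 7.12-fold lower (log2 change -2.83, limma adjusted p = 0.00168), and the log2 change was -1.715 with normexp background correction. Its brightest probe went the other way, at 13.97, 13.53, 13.61 and 13.67 in WT veh and at 14.23, 14.22, 14.26 and 14.31 in Atm-/- veh. That difference of 0.56 just missed the threshold (limma adjusted p = 0.0512), and another *Ift46* probe was higher by 0.75 (adjusted p = 0.105, limma). The probes of this gene thus disagreed in direction while each of the 3 separated the groups.

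*Il10ra*, the ligand-binding chain of the interleukin-10 receptor, was at 8.66, 9.15, 9.33 and 9.24 in WT veh and at 6.98, 7.20, 7.75 and 7.07 in Atm-/- veh, a 3.58-fold fall (limma adjusted p = 0.00351). Its dimmer probe was lower as well, by 1.96 in size (adjusted p = 0.155, limma), with no overlap. *Fxyd6*, a regulator of the sodium pump, was at 15.73, 16.21, 16.09 and 15.98 in WT veh and at 14.33, 14.58, 15.07 and 14.04 in Atm-/- veh, a 2.82-fold fall (limma adjusted p = 0.00929). *Pts*, which makes an intermediate of tetrahydrobiopterin, the cofactor of dopamine and serotonin synthesis, was at 9.81, 10.49, 10.47 and 10.52 in WT veh and at 8.98, 9.02, 8.65 and 9.21 in Atm-/- veh. It fell 2.56-fold (limma adjusted p = 0.00236), and WT veh 1 lay well below the other WT veh arrays. *Nxpe4*, of the neurexophilin and PC-esterase family, was at 8.24, 9.01, 9.07 and 9.12 in WT veh and at 7.76, 7.78, 7.62 and 7.94 in Atm-/- veh. Its fall of 2.12-fold was close to the threshold (limma adjusted p = 0.0473), and the call was lost in 13 of 17 alternatives. *Zc3h12c*, an endoribonuclease that degrades messenger RNA of immune genes, was the only called gene of the region to rise. It was at 10.01, 10.02, 9.82 and 9.76 in WT veh and at 10.61, 10.79, 10.77 and 10.49 in Atm-/- veh, a rise of 0.76 on the log2 scale (limma adjusted p = 0.0141), with the call lost in 7 of 17 alternatives. A dimmer *Zc3h12c* probe overlapped between the groups, with a change of 0.08.

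On the telomere side, 4 genes had a called probe, between 1.16 and 6.99 Mb away, and all of them fell. *Dnaja4*, a co-chaperone of HSP70, was at 13.19, 13.43, 13.28 and 13.42 in WT veh and at 12.52, 12.72, 12.58 and 12.41 in Atm-/- veh, 1.71-fold lower (limma adjusted p = 0.00403). The spread within each of these groups was small against the gap between them. *Nrg4*, a ligand of the ErbB4 receptor, was at 5.40, 6.60, 6.39 and 6.25 in WT veh and at 3.99, 3.70, 3.11 and 4.13 in Atm-/- veh, where it was well above background on 2 of 4 arrays. The log2 change was -2.43 (limma adjusted p = 0.0223) and -0.81 with normexp background correction, and the call was lost in 12 of 16 alternatives. A second *Nrg4* probe was lower by 1.02 in size without overlap (adjusted p = 0.15, limma). *Cd276*, an immune checkpoint ligand of the B7 family, was at 8.68, 8.74, 8.95 and 9.20 in WT veh and at 7.82, 8.12, 7.90 and 7.95 in Atm-/- veh, 1.92-fold lower (limma adjusted p = 0.0473), a call lost in 12 of 17 alternatives. *9230112J17Rik* was at 7.61, 8.01, 7.79 and 8.24 in WT veh and at 6.76, 7.14, 6.74 and 6.79 in Atm-/- veh, 2.08-fold lower (limma adjusted p = 0.0223), a call lost in 9 of 17.

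*Mia2* on chromosome 12, which encodes a protein of the endoplasmic reticulum exit sites, was the only called named gene outside the region. Its called probe was at 9.46, 9.53, 9.47 and 9.47 in WT veh and at 10.04, 9.82, 9.95 and 10.05 in Atm-/- veh, a 1.40-fold rise (limma adjusted p = 0.0473) whose call was lost in 12 of 17 alternatives. The other 3 *Mia2* probes were lower, by 0.05, 0.23 and 0.38 in size, and none of them was called. In the NR arrays the called *Mia2* probe differed by 0.03 and its groups overlapped, so it was the only 1 of the 20 called probes that did not separate the genotypes there. Of the 7 called probes without a gene name, all fell. The largest of these falls were seen for the probes A_55_P2054967 and A_55_P2715091. The first was between 9.27 and 9.59 in WT veh and between 2.94 and 4.88 in Atm-/- veh, where it was well above background on 2 of 4 arrays, a change of -5.43 (limma adjusted p = 2.02e-05). The second was between 8.5 and 9.54 in WT veh and between 4.52 and 5.75 in Atm-/- veh, a change of -3.98 (limma adjusted p = 9.71e-05).

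**Figure D2:**
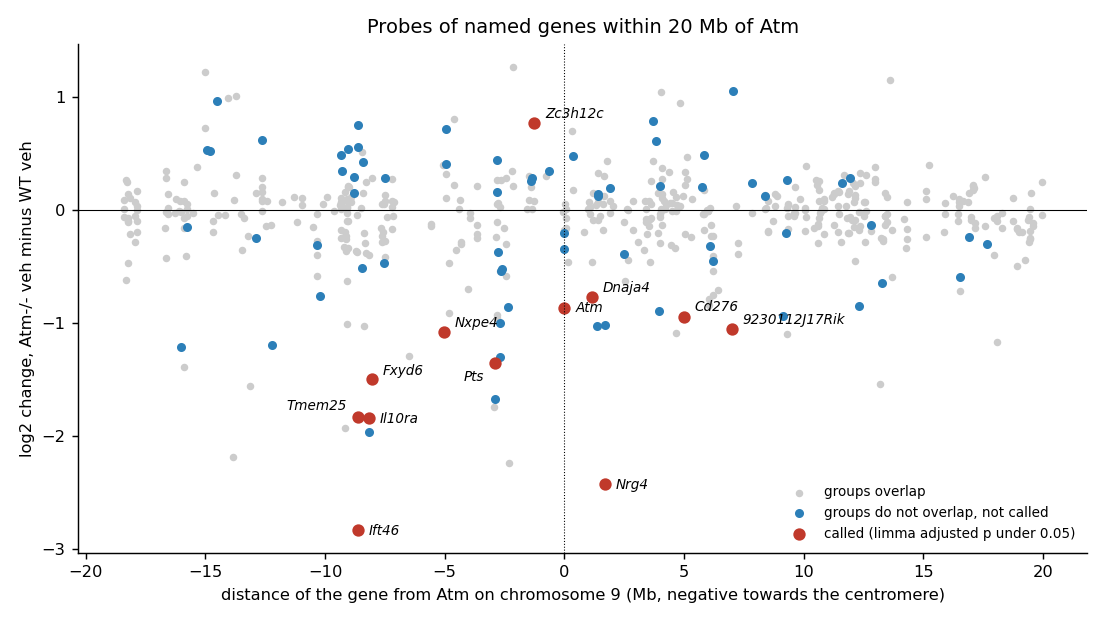
Log2 change (Atm-/- veh minus WT veh, vertical axis) of each kept probe of a named gene within 20 Mb of *Atm*, against its distance from *Atm* in Mb (horizontal axis, negative towards the centromere). Red points were called by limma, blue points did not overlap between the groups and were not called, and grey points overlapped. All called points lie within 8.64 Mb.

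The separation of genotypes was then read by distance from *Atm*, counting probes for which all 4 Atm-/- veh arrays lay above, or all 4 below, all 4 WT veh arrays. Such probes made up 7.60% of all kept probes, 1545 higher and 1287 lower in Atm-/- veh. Apart from *Atm*, they made up 19.6% of the 158 probes of genes up to 5 Mb away and 19.4% of the 144 probes at 5 to 10 Mb. Further out the share was 7.56% at 10 to 20 Mb, 6.33% at 20 to 40 Mb and 7.51% beyond 40 Mb on chromosome 9, against 7.83% on the other chromosomes, so that beyond 10 Mb it lay near that of the whole array. Within 10 Mb, 30 such probes were higher and 29 lower, while 10 of the 11 called ones were lower. Changes of more than 1 in size made up 8.28% of the probes within 10 Mb and 2.14% of those further along chromosome 9. The share without overlap was 23.3% of 146 probes on the centromere side and 16% of 156 on the telomere side. Probes of 1 gene share a transcript, so these shares are descriptions and were not tested.

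The genes closest to *Atm* were not called. No gene closer than *Dnaja4* had a called probe other than *Atm* itself. *Acat1*, a mitochondrial thiolase, differed by 0.05 (limma adjusted p = 0.832), and the 3 probes of *Cul5*, a scaffold of ubiquitin ligases, differed by -0.07, -0.16 and 0.01, with limma adjusted p of 0.601 to 0.969. Without overlap were *Poglut3*, a glycosyltransferase (-0.21, limma adjusted p = 0.434), 1 of 2 probes of *Elmod1*, of the ELMO domain family (0.47, limma adjusted p = 0.155), and *Gm1715* (0.34, limma adjusted p = 0.417). The called genes thus lay among many that overlapped between the groups, on both sides of *Atm*.

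**Figure D3:**
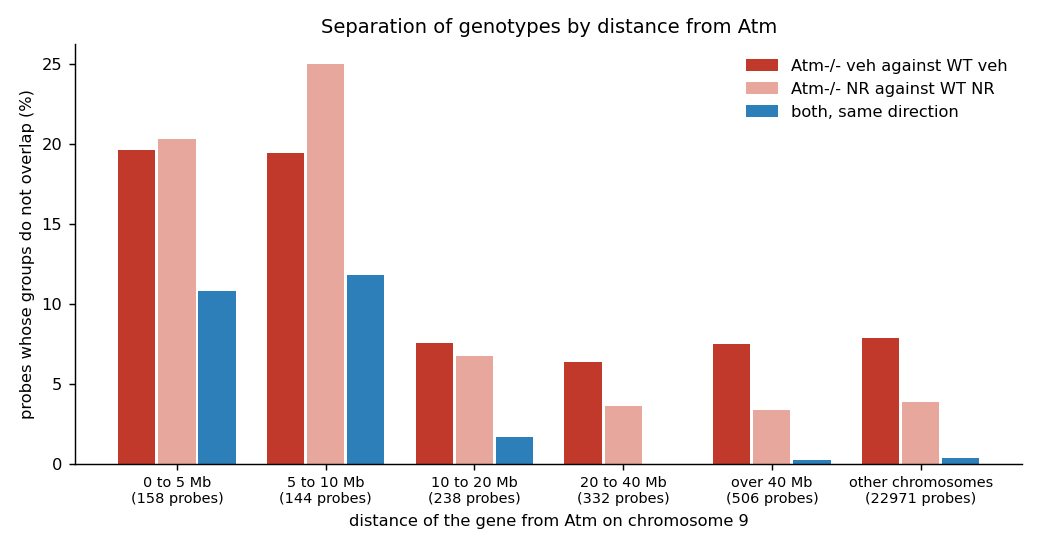
Percentage of probes whose groups do not overlap (vertical axis) by distance of the gene from *Atm* on chromosome 9 (horizontal axis, number of probes below each class, *Atm* itself left out). Dark red bars compare Atm-/- veh with WT veh, light red bars Atm-/- NR with WT NR, and blue bars count probes that separate in the same direction in both. The share is 19.6% and 19.4% in the first 2 classes and 7.83% on other chromosomes for the veh arrays.

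The NR arrays, which share no mouse with the veh arrays, gave a second reading of the same genotype difference. This reading was not independent of the calls, since their spread was estimated from all 16 arrays and the filter on dim probes also used the NR groups. All 20 called probes differed in the same direction there, 19 of them again without overlap, and 13 were called (limma, where 20 probes, 0.0537%, were called in all for Atm-/- NR against WT NR). The median size of their change was 1.44 in the veh arrays and 1.5 in the NR arrays. *Tmem25* lay between 14.49 and 15.05 in WT NR and between 12.40 and 12.59 in Atm-/- NR (change -2.25, limma adjusted p = 3.28e-05), and *Ift46* between 8.27 and 8.5 in WT NR and between 5.6 and 5.96 in Atm-/- NR (change -2.66, limma adjusted p = 0.00246). *Dnaja4* differed by -0.43 there, against -0.77 without NR, and was not called in the NR arrays (limma adjusted p = 0.236), although the difference between these values did not pass the test either. No probe of the 37253 passed that test of a difference between the genotype changes with and without NR (limma, smallest adjusted p = 0.839, 1962 probes at an unadjusted p under 0.05). Under the alternatives, 5 probes passed it with only arrays with Y-gene signal, and 1 did without Atm-/- veh 2. Genotype and slide were joined in the NR arrays in the same way, and 3 of these 8 arrays (WT NR 1, WT NR 4 and Atm-/- NR 4) had *Xist* and no Y-gene signal against their male label. In the fit of only the arrays with Y-gene signal, 11 probes were called without NR, and 7 of these were also called with NR.

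Probes that separated the genotypes in the same direction in both sets numbered 179 (0.480% of all kept probes), and 18 separated them in opposite directions. Of the 179, 34 lay within 10 Mb of *Atm*, which is 11.3% of the 302 probes there, and 5 lay further along chromosome 9, which is 0.465% of 1076. When the genome was divided into windows of 10 Mb holding at least 20 probes, 254 in all, the window with *Atm* (10.8%) and the next one towards the centromere (11.4%) held the largest shares, and the next one towards the telomere followed (4.62%). Genes of this kind that were not called in the veh arrays included *Cryab*, a small heat shock protein, at 14.46, 14.37, 14.04 and 14.58 in WT veh and at 13.64, 13.47, 12.86 and 13.47 in Atm-/- veh. Its change was -1.0033 (limma adjusted p = 0.106) and -1.18 with NR (limma adjusted p = 0.0495). *Bco2*, a mitochondrial enzyme that cleaves carotenoids, was at 6.48, 7.39, 7.34 and 8.02 in WT veh and at 6.09, 5.84, 5.26 and 5.33 in Atm-/- veh, a change of -1.67 (limma adjusted p = 0.0569). *Ppcdc*, an enzyme of coenzyme A synthesis, was at 11.41, 11.35, 10.86 and 10.93 in WT veh and at 11.73, 11.75, 11.68 and 11.83 in Atm-/- veh, a change of 0.61 (limma adjusted p = 0.106) that was 1.02 with NR (limma adjusted p = 0.00164). These 3 genes kept the order of the groups in both sets, *Cryab* and *Bco2* lower and *Ppcdc* higher without Atm.

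Of the 8 genes that the study names for this comparison, none was called, and 7 were higher in Atm-/- veh on their brightest probe. Called means an adjusted p under 0.05 here, while the study combined a looser false discovery rate with a z-ratio. A gene that was not called here can therefore still pass the study's cut-off. The list was chosen by the study on these samples, so its direction is not independent evidence. *Lrrc49*, a leucine-rich repeat protein that lies 7.05 Mb from *Atm* on the telomere side, had the largest change, at 12.22, 12.27, 12.57 and 11.54 in WT veh and at 13.14, 12.77, 13.61 and 13.27 in Atm-/- veh. The change of 1.05 (limma adjusted p = 0.106) was 0.98 with NR, without overlap in either set. *St14*, the serine protease matriptase, was at 8.43, 8.32, 7.93 and 7.99 in WT veh and at 8.95, 8.68, 8.80 and 8.96 in Atm-/- veh (change 0.68, limma adjusted p = 0.191), and lies 22.31 Mb from *Atm*. *Cyp2t4*, a cytochrome P450, differed by 0.84 and *Spaca6*, a protein of sperm and egg fusion, by 0.69, both without overlap, with limma adjusted p of 0.251 and 0.236. The groups overlapped for *Hmmr*, a hyaluronan receptor of the mitotic spindle (change 0.96), and for *Pign*, an enzyme of glycolipid anchor synthesis (0.88). They also overlapped for *Cd209d*, a C-type lectin (0.68), and for *Dzip1*, a zinc finger protein of the cilium base (-0.03). The limma adjusted p of these 4 genes were 0.216, 0.221, 0.237 and 0.936. Other probes of *Pign* were lower (-0.23 and -0.87), and those of *Dzip1* ran from -0.32 to 0.73, none of them called. The *Dzip1* probe at 0.73 overlapped between the veh groups and was higher by 0.84 without overlap in the NR arrays. The paper does not state which probe of a gene it read.

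Separation of the groups was common over the whole array, where 3.90% of the 16737 genes were higher and 4.84% lower without overlap. Beyond 20 Mb of *Atm*, 1331 named genes that were detected on all 8 arrays did not overlap between the groups. Of these, 568 were higher and 763 lower in Atm-/- veh, with 23 and 24 of them differing by more than 1. None was called on its brightest probe. The 8 with the largest positive differences were *Gm16982*, *Kif12*, *0610039H22Rik*, *Wfdc6a*, *5033421B08Rik*, *Dnajb8*, *Arhgap33os* and *4930528A17Rik*, with differences of 1.94 down to 1.69 and limma adjusted p of 0.210 to 0.269. They shared a pattern over the arrays. *Kif12*, a kinesin motor, was at 5.35, 7.44, 7.08 and 5.21 in WT veh and at 8.76, 8.05, 8.48 and 7.54 in Atm-/- veh, and *Gm16982* at 5.15, 7.17, 6.26 and 5.16 and at 8.65, 7.35, 8.18 and 7.33. WT veh 1 and 4 were lowest and Atm-/- veh 1 and 3 highest in both genes. The counts of probes well above background were 37843 and 38491 on the first pair of arrays and 41905 and 41502 on the second, but 42559, the highest of all 8, on WT veh 3 and 39134 on Atm-/- veh 2, and their part in these differences was not tested. In the NR arrays the 8 genes differed by -0.05 to 0.60. On a dimmer probe, *Kif12* differed by 0.18 in the veh arrays, with overlap (limma adjusted p = 0.643).

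Among the 8 genes beyond 20 Mb with the largest negative differences, *Slc7a3*, a transporter of cationic amino acids, was at 8.24, 11.61, 11.35 and 10.43 in WT veh and at 7.19, 8.06, 7.65 and 7.63 in Atm-/- veh, a change of -2.78 (limma adjusted p = 0.198). WT veh 1 lay close above the highest Atm-/- veh array. *9330179D12Rik* (-1.64) and *Apobec2*, of the cytidine deaminase family (-1.40), were lower on all Atm-/- veh arrays with no single WT array far above the rest. The differences of *Krt12*, a keratin (-1.95), *Sstr1*, a somatostatin receptor (-1.73), *Dbpht2* (-1.69), *B230216N24Rik* (-1.40) and *Dleu7* (-1.31) went with high values on WT veh 4. *Krt12* was at 10.43 on that array and between 4.96 and 5.38 on the other WT veh arrays, and *Sstr1* at 11.92 against 8.02 to 8.72. This is the array with the high *Tbr1* and *Ttr* values, and the part of the tissue they mark in these differences was not tested.

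The gene lists for functions known to involve ATM and for cell types had no member called on its brightest probe. For comparison, over the 16737 genes 3.90% were higher and 4.84% lower without overlap, 7.10% were higher and 9.73% lower at an unadjusted p under 0.05, and the median change was -0.03. In the list of ATM signalling and double-strand break repair, 4 of 20 measured genes were higher and 16 lower, none without overlap, with a median of -0.10. *Lig4*, the ligase of end joining, was the only one at an unadjusted p under 0.05 (change -0.22), and *Brca1*, of homologous recombination, had the largest change (-0.41). Of 19 p53 target genes, *Plk2*, a kinase, was lower without overlap (-0.43), and *Cdkn1a*, which encodes the cell cycle inhibitor p21, was at 9.74, 9.76, 9.81 and 9.44 in WT veh and at 10.01, 10.24, 11.64 and 9.72 in Atm-/- veh (change 0.72, limma adjusted p = 0.296). Atm-/- veh 3 was the highest array for *Cdkn1a*, and the remaining Atm-/- values lay between 9.72 and 10.24.

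Among 19 genes of senescence and its secretory phenotype, *Igfbp5*, an IGF-binding protein, came closest to the threshold. It was at 13.17, 13.05, 12.88 and 13.03 in WT veh and at 13.57, 13.62, 13.55 and 13.65 in Atm-/- veh, and the change of 0.57 missed it narrowly (limma adjusted p = 0.0615). In the NR arrays its change was 0.15. *Gdf15*, a stress cytokine, was at 5.74, 8.31, 8.39 and 6.60 in WT veh and at 6.04, 6.14, 5.86 and 5.13 in Atm-/- veh, with overlap. *Cdkn2a*, which encodes p16 and p19, differed by -0.46 with overlap. The list's median was 0.02, with 12 genes higher and 7 lower, and without Atm-/- veh 3 it was -0.21, with 4 higher and 15 lower. Of the 26 genes listed, 7 did not pass the filter on dim probes, among them the cytokine genes *Il6*, *Il1a*, *Il1b* and *Cxcl2*.

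Interferon and virus response genes set Atm-/- veh 3 apart from the other arrays. Of 31 measured genes, 27 were highest on that array, as were 12.7% of all genes. *Isg15*, a ubiquitin-like protein, was at 12.84 on Atm-/- veh 3, at 11.39, 10.46 and 10.63 on the other Atm-/- veh arrays, and at 10.92, 10.82, 10.82 and 10.97 in WT veh. *Irf7*, the transcription factor that amplifies type I interferon, was at 12.99 on Atm-/- veh 3 and between 10.28 and 11.17 on the other 7 arrays, and *Cxcl10*, an interferon-induced chemokine, at 11.97 against 7.03 to 8.57. The list's median change was 0.10 with all arrays, with 18 genes higher and 13 lower, and -0.21 without Atm-/- veh 3, with 4 higher and 27 lower, so the sign of the median rested on that 1 array. *Dhx58*, a helicase that senses viral RNA, was the only member without overlap, at 7.14, 8.24, 8.21 and 7.62 in WT veh and at 8.55, 8.37, 8.47 and 8.44 in Atm-/- veh (change 0.66, limma adjusted p = 0.218). The log2 of the summed signal of 8 measured blood cell markers ran from 16.92 to 19.26 in Atm-/- veh and from 17.44 to 17.95 in WT veh. It was highest on Atm-/- veh 3 (list median 0.50, and -0.12 without that array), and its part in the interferon values was not tested. Proliferation genes were highest on this array as well, in 11 of 14.

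In the cGAS-STING list, none of 14 genes separated the groups, and the median change was -0.02. *Cgas*, the sensor of cytosolic DNA, differed by -0.32 and *Sting1*, its adaptor, by -0.17, both with overlap. The complement list had 3 of 19 genes without overlap, among them *St14*, higher by 0.68, and its median of 0.10 was -0.10 without Atm-/- veh 3. Among 23 genes of mitophagy and autophagy, *Tax1bp1*, an autophagy receptor, was higher without overlap on its brightest probe (0.29). Its dimmer probes overlapped between the groups, with changes of -0.22 and 0.02. *Pink1*, the kinase that marks damaged mitochondria, differed by 0.13 with overlap. Of 33 subunits of oxidative phosphorylation, *Ndufs3* (0.26) and *Ndufv2* (0.30) of complex I were higher and *Cox6a1* of complex IV lower (-0.20) without overlap, and the list's changes ran from -0.20 to 0.39. For *Ndufv2* and *Ndufs3* the lowest array was WT veh 1, which for *Ndufv2* lay at 14.76 against 15.66 to 15.73 on the other WT veh arrays.

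In NAD metabolism, *Nmnat2*, which makes NAD in axons, was at 10.61, 10.69, 10.60 and 10.45 in WT veh and at 11.17, 10.96, 10.96 and 11.07 in Atm-/- veh (change 0.45, limma adjusted p = 0.163). *Kmo*, an enzyme of the kynurenine route to NAD, was at 6.69, 6.40, 6.46 and 6.28 in WT veh and at 7.0, 7.24, 7.09 and 6.82 in Atm-/- veh (change 0.58, limma adjusted p = 0.216). These were the 2 of 22 genes without overlap, and the list's median was 0.01. *Nampt*, the rate-limiting enzyme of NAD salvage, overlapped between the groups (-0.0022). Of 26 other ataxia genes, *Atxn1*, a transcriptional regulator abundant in Purkinje cells, was lower by 0.25 in size without overlap (limma adjusted p = 0.251). A dimmer *Atxn1* probe differed by 0.14 with overlap, and the list's median was 0.0045. Among 24 antioxidant genes, *Nfe2l2*, the transcription factor NRF2, was lower without overlap (-0.27), and its target *Nqo1* differed by 0.35 with overlap. Of 37 genes of synaptic transmission, *Vamp2*, a vesicle protein, was higher without overlap (0.19), *Gad1*, which makes GABA, differed by 0.37 and *Snap25* by 0.36 with overlap. In this list 19 genes were higher and 18 lower, with a median of 0.01, and the lowest was *Stx1a*, a syntaxin (-1.34, with overlap), at 11.62 on WT veh 4 and between 5.82 and 6.85 on the other 7 arrays.

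**Figure D4:**
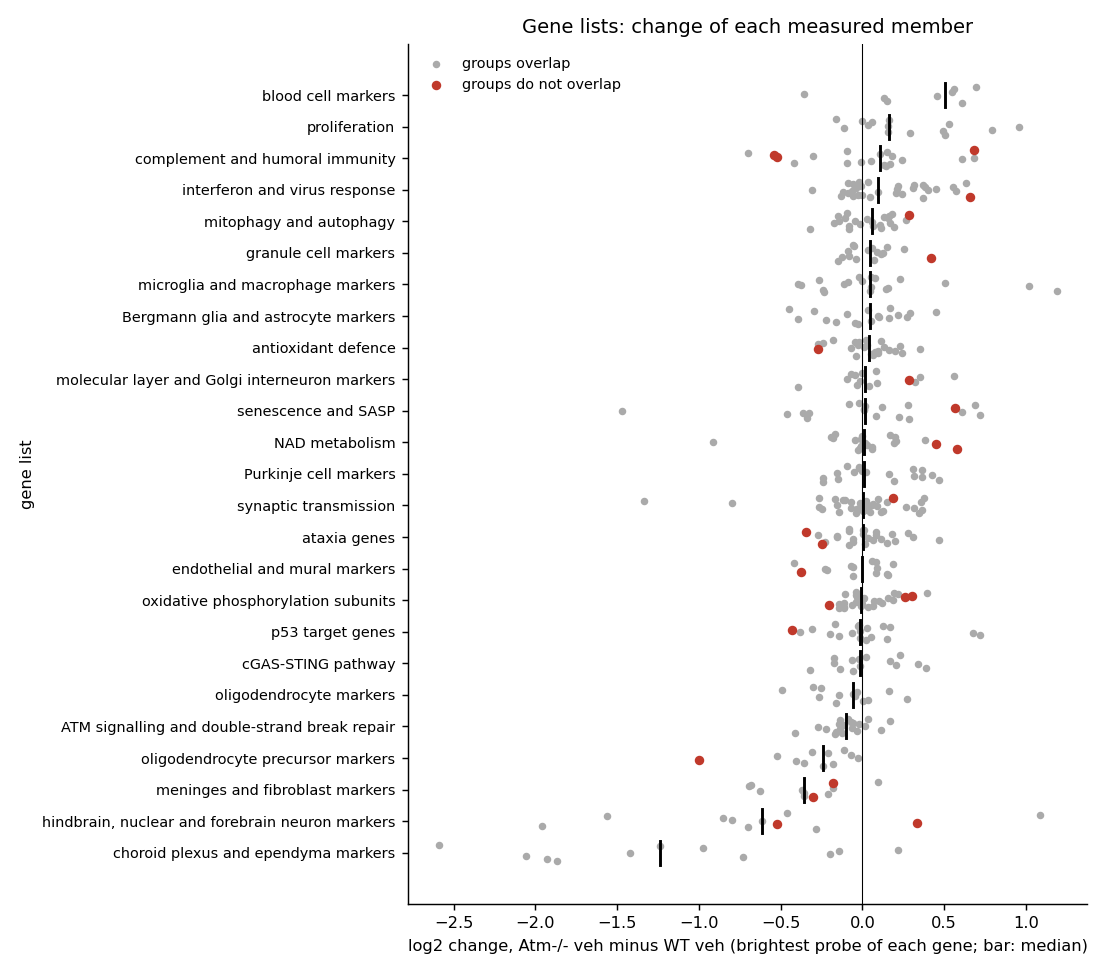
Log2 change (Atm-/- veh minus WT veh, horizontal axis) of each measured member of 25 gene lists (vertical axis, ordered by median), on the gene's brightest probe. Red points are genes whose groups do not overlap, grey points overlap, and the black bar is the list's median. Medians lie between -0.10 and 0.16 except for the 4 lists at the bottom and the blood cell list at the top.

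No marker of the neurons of the cerebellar cortex was called. A lower level of a cell type's markers in tissue RNA cannot be told apart from less RNA per cell. Of 18 Purkinje cell markers, 9 were higher and 9 lower, none without overlap, with a median of 0.01 and differences from -0.24 to 0.47. Without WT veh 4, the lowest array for this list, 7 were higher and 11 lower with a median of -0.06, and at an unadjusted p under 0.05 the members went from 3 higher and 0 lower to 1 higher and 4 lower. *Pcp2* was at 18.06, 18.44, 18.32 and 17.84 in WT veh and at 18.24, 18.21, 17.84 and 18.44 in Atm-/- veh, and *Calb1*, the calcium buffer calbindin, at 16.63, 17.53, 17.49 and 16.82 and at 17.29, 17.29, 17.16 and 17.53. Both genes overlapped between the groups. Of 16 granule cell markers, *Cbln3*, a secreted synapse organiser, was the only one without overlap (0.42), and the median was 0.05, which became -0.11 without WT veh 4. *Lypd6* of molecular layer interneurons was higher without overlap (0.28), in a list of 14 with a median of 0.02. Bergmann glia and astrocyte markers (18 genes, median 0.04), oligodendrocyte markers (13 genes, -0.06) and microglia and macrophage markers (19 genes, 0.05) had no member without overlap. The microglia median was 0.22 without WT veh 4, with 13 higher and 6 lower, and -0.16 without Atm-/- veh 3, with 6 higher and 13 lower. *Flt1*, a VEGF receptor of endothelium, was lower without overlap (-0.37), among 14 genes, 7 higher and 7 lower.

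The marker lists with the lowest medians were highest on WT veh 4. For choroid plexus and ependyma, 10 of 11 genes were lower in Atm-/- veh, none without overlap, with a median of -1.24. Without WT veh 4 the median was -0.18. The log2 of the list's summed signal ran from 13.13 to 18.30 in WT veh and from 13.12 to 13.94 in Atm-/- veh. *Folr1* of the choroid plexus was at 8.11, 7.46, 5.66 and 13.45 in WT veh and at 5.96, 6.98, 6.63 and 6.88 in Atm-/- veh. For neurons of hindbrain, nuclei and forebrain, 9 of 11 measured genes of 18 were lower with a median of -0.61, which was -0.23 without WT veh 4. The log2 of this list's summed signal ran from 15.02 to 15.83 in WT veh and from 15.44 to 15.70 in Atm-/- veh. *Emx1* and *Hoxa5* were among its 7 genes that did not pass the filter on dim probes. All 11 oligodendrocyte precursor markers were lower, with *Gpr17*, a receptor of precursors that begin to differentiate, at 11.98, 11.42, 11.42 and 13.07 in WT veh and at 10.99, 11.06, 10.70 and 11.13 in Atm-/- veh (change -0.998, limma adjusted p = 0.198). Without WT veh 4, 5 of the 11 were higher and 6 lower and the median moved from -0.24 to -0.05. Meningeal and fibroblast markers were lower in 10 of 11, with a median of -0.35 that was -0.25 without WT veh 4.

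**Figure D5:**
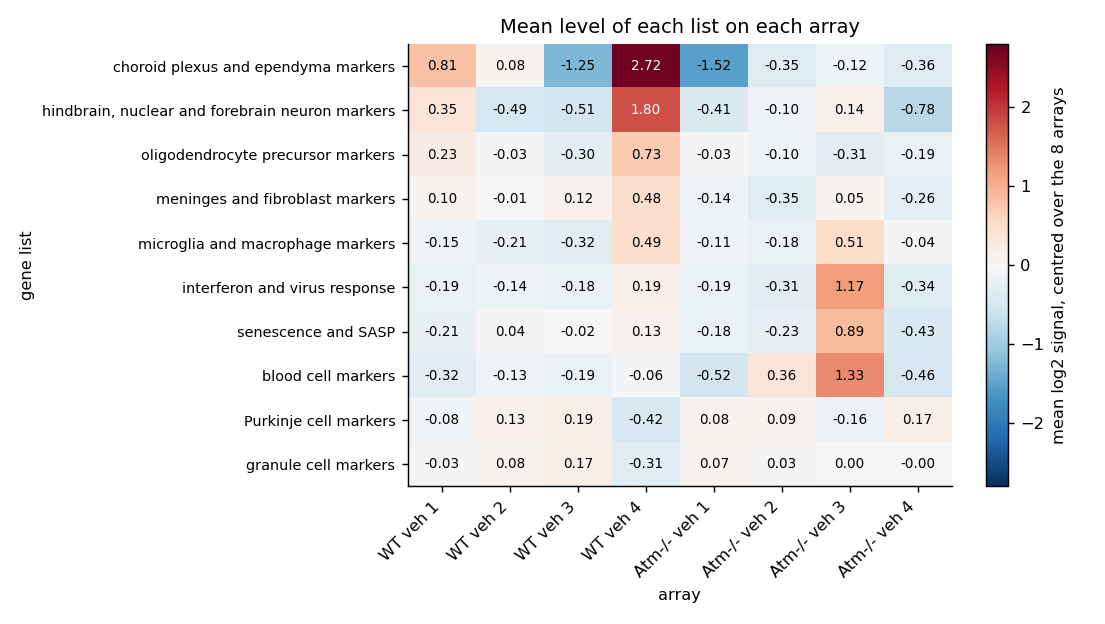
Mean log2 signal of 10 gene lists (vertical axis) on each of the 8 veh arrays (horizontal axis), centred per gene over the 8 arrays, with the value written in each cell. WT veh 4 is high for choroid plexus (2.72) and for hindbrain, nuclear and forebrain neurons (1.80), and Atm-/- veh 3 for interferon (1.17), senescence (0.89) and blood (1.33) genes.

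Without the arrays that stood apart, the calls near *Atm* thinned out, as they did somewhat less without most of the other arrays. Leaving out WT veh 4 gave 13 called probes and leaving out Atm-/- veh 3 gave 13, of which 12 and 12 were among the 20, with 7 genes near *Atm* in each case in place of 12. Leaving out both gave 15 called probes, 11 of them among the 20, and 6 genes near *Atm*. Leaving out WT veh 2, WT veh 3, Atm-/- veh 1 or Atm-/- veh 4 gave 9, 8, 9 and 10 genes near *Atm*. Without Atm-/- veh 2, in contrast, 47 probes were called, with 14 named genes beyond 20 Mb, and without WT veh 1, 31 were called. The genes near *Atm* numbered 14 and 17 in these fits. All 20 called probes kept their direction in every fit that left out 1 array or both. The share of probes without overlap within 10 Mb was 32.8% without both arrays, against 20.2% of the other probes, since fewer arrays overlap less often.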

How the data were processed

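Cerebellar RNA of 16 mice was labelled with Cy3 and hybridised to 16 Agilent arrays, 4 per group, and samples were grouped by their labels. Per the file headers, the deposited intensity of each spot was read by Agilent Feature Extraction 12.0.3.1 with background subtracted, and arrays were not normalized to each other. The authors also deposited 1 score per spot, a z value made by quantile normalization, a log and scaling per array, which was recomputed here to within 0.01.

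Of 62976 spots, 3671 control spots were dropped. Detection of a probe required that 0.5 or more of its spots be well above background, and the probes analysed were detected on every array of 1 or more groups. Log2 signals were quantile normalized, as in the study's methods, and spots of a probe averaged without outliers. Genes were named through RefSeq accessions (GRCm38.p6), a build other than that of the array design, so its positions gave names, neighbours and distances only, and lists used the brightest probe of each gene. The fit was limma 3.58.1 in R 4.3.3 with the data.table package (version 1.17.8), over 4 group means and 16 arrays (12 residual degrees of freedom). Calls are Benjamini-Hochberg adjusted p under 0.05. Single values were compared by two-sided exact permutation tests. The number of arrays limits the precision, and the labels say of replicates only that each is a mouse. The fit was tested on simulated data.

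The comparison, the named genes and the 26 gene lists were chosen with earlier results of these data known. Named by rule were *Atm*, 8 genes the study names, genes with a called probe, the 8 highest and 8 lowest differences beyond 20 Mb among genes detected on all 8 veh arrays without overlap, and up to 2 such members per list. Other genes were picked after their values were seen. Alternatives were 75th percentile scaling, normexp (offset 50), only the veh arrays, other filters on dim probes, the z-scores, the methods' t-test, a replicate block, only arrays with Y-gene signal, and each array left out. Leaving out WT veh 4 with Atm-/- veh 3 was added after seeing the data.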

Additional observations from a re-analysis of the deposited data

Results flagged for a closer look

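In 17 of 176 groups of 4 arrays tested (9.66%), 1 array lay far from the other 3. Chance flags about 1 in 20 groups. Among the called genes, WT veh 1 was low for *Pts* (9.806, others 10.47 to 10.52) and *Nxpe4* (8.2377, others 9.01 to 9.12), WT veh 2 was high for *Mia2* (9.5313, others 9.46 to 9.47), and Atm-/- veh 2 was high for *9230112J17Rik* (7.1374, others 6.74 to 6.79). In each of these the array set apart was the one of its group nearest to the other genotype.

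WT veh 4 was high for *Krt12* (10.4268), *Dbpht2* (9.9991), *B230216N24Rik* (8.6404) and *Plk2* (9.5332). WT veh 1 was low for the complex I subunits *Ndufv2* (14.763) and *Ndufs3* (15.5374) and high for *Spaca6* (9.0471). Atm-/- veh 2 was low for *B230216N24Rik* (4.3291) and Atm-/- veh 4 for *Plk2* (8.3883).

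Atm-/- veh 3, the array without Y-gene signal, was high for the mean of the interferon list (10.5088, others 9.0 to 9.15), of the cGAS-STING list (11.0081, others 10.69 to 10.73) and of the complement list (9.621, others 8.99 to 9.06). WT veh 4 was high for the interferon list as well (9.5245, others 9.15 to 9.20).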

How the results depend on the processing

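The 13 called named probes kept their direction in all 220 values computed under the alternatives, and kept the call in 146 of them. Fitting only the veh arrays left 7 called probes and 1 called gene near *Atm*. Using only arrays with Y-gene signal left 11 and 5, with 4494 probes without overlap. Such probes made up 25.8% of the probes within 10 Mb and 11.6% of the other probes. Of these 11 called probes, 7 were also called with NR. The methods' t-test gave 4290 probes unadjusted and 2 after adjustment. Leaving out WT veh 4 and Atm-/- veh 3 together gave 6 called genes near *Atm* and 7641 probes without overlap. The share without overlap was then 32.8% of the probes within 10 Mb and 20.2% of the other probes. Leaving out each array in turn gave 13 to 47 called probes and 7 to 17 called genes near *Atm*. Probes without overlap then numbered 3271 to 5978. They made up 20.2% to 27.4% of the probes within 10 Mb and 8.63% to 15.4% of the other probes. Of the probes called in each of these fits, 10 to 18 were also called with NR. The cause was not tested, beyond the smaller number of arrays. Directions turned for *Ptgds* and *Dzip1*, each read on its brightest probe and neither of them called. *Ptgds* was at 0.0222 under 75th percentile scaling. *Dzip1* was at 0.0029 under normexp and 0.0533 with only arrays with Y-gene signal, 0.0336 without both arrays, and between -0.1092 and 0.0656 when each array was left out. The replicate numbers did not pair the arrays (correlations of same-numbered arrays -0.151 to 0.194), and with a replicate block 15 probes were called, 13 of them among the 20.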
